A study of Mus musculus with 1824 samples.

Results

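The 9 genes described here encode most of the haem synthesis pathway and its iron supply. *Alas2*, *Alad*, *Uros*, *Urod*, *Cpox*, *Ppox* and *Fech* are enzymes of the pathway, *Slc25a37* (mitoferrin) carries iron into mitochondria, and *Tfrc* is the receptor that takes up transferrin-bound iron. They were chosen by name, 9 of the 55487 genes counted, and read in single mouse cells against the summed level of the embryonic globins *Hba-x*, *Hbb-bh1* and *Hbb-y*. The cells were taken from chimaeras at embryonic day 7.5 (E7.5) and 8.5 (E8.5). In these, cells of 1 *Tet* triple-knockout embryonic stem cell line carrying a tdTomato reporter developed beside cells of C57BL/6J host blastocysts, in CD1 recipients; CD1 is the strain in the labels of all cells. Transcriptomes were made by Smart-seq2. The methods give staining for KDR and CD41 and sorting as live singlets for the cells in which DNA methylation was also read. Most of those were also incubated with a GpC methylase before freezing. Other cells were sequenced for RNA alone, and the cells of each kind are not told apart here. Genotype and sort gate are not given per cell, so knockout and host cells could not be told apart. A value may mix them or rest on 1 genotype. Embryos were pooled for the chimaera collections, and an animal is named only for 4 E7.5 embryos, none of which held a globin-rich cell. Each stage therefore counts as 1 sample, and no test between groups of cells was made. Plates give the spread. They differed in kinds of cell and may differ in sort gate and genotype, so this spread is not technical alone.

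Haem is made in a series of steps that start and end in the mitochondrion. ALAS2 is the red cell form of the enzyme of the first step, and ALAS1 the form of other tissues. ALAD, UROS and UROD act in the cytosol, CPOX and PPOX oxidise the product, and FECH inserts iron. In the yolk sac, the first red cells fill with embryonic haemoglobin and need haem and iron in large amounts. Iron-regulatory proteins, encoded by *Aco1* and *Ireb2*, bind hairpins named iron-responsive elements in the transcripts of *Alas2* and *Tfrc*. Bound near the start of the *Alas2* transcript they hold back its translation, and bound near the end of the *Tfrc* transcript they protect it from decay.

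The iron-responsive elements of *Alas2* and *Tfrc* are shown because the other 7 members held none. They were sought in GENCODE M21 transcripts (GRCm38) as a cytosine, 5 bases, a loop of CAGTGN and 5 bases that pair with the first 5. Pairs of G with T were allowed, and this form was found in 1.34% of 21901 coding genes. *Alas2* had 1 match in its 5′ untranslated region, and *Tfrc* had 4 in its 3′ untranslated region, all on the plus strand. Capitals mark the loop.
Alas2 element, chrX:150547464-150547480: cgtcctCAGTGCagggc
Tfrc element 1, chr16:32631225-32631241: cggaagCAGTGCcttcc
Tfrc element 2, chr16:32631604-32631620: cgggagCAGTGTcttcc
Tfrc element 3, chr16:32631669-32631685: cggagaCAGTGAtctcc
Tfrc element 4, chr16:32631716-32631732: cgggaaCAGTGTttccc

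The promoters of *Alas2*, *Cpox* and *Uros* are shown because, of 10 RefSeq promoters (GRCm38.p6) of 7 members, these 3 held the letters bound by GATA factors in the 250 bases before the start. These letters were AGATAA or AGATAG. Those with T in place of the first A also counted, that is TGATAA or TGATAG, and both strands were read. Of 32851 promoters of the same length 26.5% held them. *Uros* has 2 starts in the table, and the downstream one is shown; the upstream one held no match. For *Alas2* and *Uros* only the bases before the nearest untranslated region annotated for the gene are printed, which leaves out 1 of the 2 matches of *Uros*. Capitals mark the GATA letters, which in *Cpox* are 2 overlapping matches. A match is a description of the sequence, not a known site.
Alas2 promoter, chrX:150547167-150547374, plus strand: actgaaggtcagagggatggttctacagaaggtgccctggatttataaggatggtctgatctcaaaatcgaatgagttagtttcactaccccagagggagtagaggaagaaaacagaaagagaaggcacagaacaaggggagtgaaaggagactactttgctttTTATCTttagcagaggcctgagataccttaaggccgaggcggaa
Cpox promoter, chr16:58669958-58670207, plus strand: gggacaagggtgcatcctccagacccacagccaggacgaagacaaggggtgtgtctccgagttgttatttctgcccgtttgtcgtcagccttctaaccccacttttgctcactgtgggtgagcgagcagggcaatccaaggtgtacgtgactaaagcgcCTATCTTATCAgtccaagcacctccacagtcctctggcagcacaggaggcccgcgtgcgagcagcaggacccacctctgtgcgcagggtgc
Uros downstream promoter, chr7:133702617-133702750, minus strand: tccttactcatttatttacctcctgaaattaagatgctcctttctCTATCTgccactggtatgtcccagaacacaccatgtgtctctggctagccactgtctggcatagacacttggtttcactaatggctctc

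Of 1824 cells, 1649 had at least 100000 reads and were used, from 11 plates at E7.5 and 8 plates at E8.5, with totals of 100941 to 6162793 reads and a median of 670090. Levels are given as CPM, the reads of a gene per 1000000 reads of the same cells. Globin-rich cells had at least 10000 CPM of the 3 globins. There were 55 at E7.5, 53 of them on the plate named lane plate 1, and at E8.5 there were 74 on plate 1, 80 on plate 2, 9 on plate 5, 3 on plate 6 and 1 on plate 7. Globin-poor cells, under 100 CPM, made up 88.3% of E7.5 and 63.8% of E8.5 cells. Median depth in globin-rich and globin-poor cells was 1045375 and 735486 reads at E7.5, and 665850 and 522081 at E8.5.

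All 9 members were at least 2-fold higher in globin-rich than in globin-poor cells at both stages. Over all genes with 10 CPM or more in a pool, 5.04% of 9803 were higher by this measure at E8.5 and 7.47% of 9654 at E7.5. The members' median log2 ratio (pooled CPM with 1 CPM added) was 3.80 at E8.5, beside −0.34 over all genes, and 3.22 at E7.5, beside −0.44. With globins removed from the totals these medians were 4.03 and −0.10 at E8.5 and 3.37 and −0.29 at E7.5. Globin genes took 15.1% of the reads of globin-rich cells at E8.5 and 9.87% at E7.5.

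*Alas2*, the entry to the pathway in red cells, had the largest ratio of the members at both stages. At E8.5 it stood at 1.76 CPM in globin-poor cells (95% Poisson interval 1.61 to 1.91) and 983.5 CPM in globin-rich cells, a log2 ratio of 8.48. At E7.5 it stood at 1.504 and 422.1 CPM, a log2 ratio of 7.40. Globin-poor pools ran from 0.623 to 3.80 CPM on the 11 E7.5 plates and from 0.328 to 8.26 CPM on the 6 E8.5 plates with at least 5 such cells. In globin-rich cells it was 419.5 CPM on lane plate 1, 1365 on E8.5 plate 1, 405.5 on plate 2 and 328.5 on plate 5. These 4 plates lay above each of those globin-poor pools. Such intervals reflect counting alone, because reads copied by amplification are not separate molecules. *Alas2* shares 15.5% of its exon bases with *Apex2* and *Mir3620* on the other strand, and whether reads were counted by strand is not given in the sources used here, so reads of these genes cannot be told apart from its own.

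The cytosolic enzymes had smaller ratios than *Alas2* and higher levels without globin. *Alad*, which joins the first intermediates, was at 136.9 CPM in globin-poor and 831.6 CPM in globin-rich cells at E8.5 (log2 ratio 2.59) and at 93.3 and 877.9 CPM at E7.5 (3.22). *Urod* was at 70.7 and 509.3 CPM at E8.5 (2.83) and at 80.6 and 294.1 CPM at E7.5 (1.85), the smallest ratio of the members at that stage. *Uros*, which closes the ring, was lower in both kinds of cell, 22.6 and 327.2 CPM at E8.5 (3.80) and 20.4 and 131.7 CPM at E7.5 (2.63). For each of the 9 members, the globin-rich pools of lane plate 1 and of E8.5 plates 1, 2 and 5 lay above all globin-poor pools of at least 5 cells of their stage.

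Among the late enzymes *Cpox* had the largest ratio at E8.5 and *Fech* at E7.5. *Cpox* was at 26.8 CPM in globin-poor and 615.01 CPM in globin-rich cells at E8.5 (4.47) and at 21.1 and 235.8 CPM at E7.5 (3.42). *Ppox* was at 28.1 and 312.04 CPM at E8.5 (3.43) and at 16.5 and 89.6 CPM at E7.5 (2.37). *Fech*, the last enzyme, was at 38.2 and 636.9 CPM at E8.5 (4.03) and at 37.1 and 580.1 CPM at E7.5 (3.93), so its ratio was nearly the same at both stages. *Ppox* shares 17.5% of its exon bases with *B4galt3* on the other strand and *Cpox* 3.06% with *Gpr15*. In globin-poor pools of the E7.5 plates *Fech* lay between 27.5 and 50.1 CPM, *Cpox* between 9.72 and 33.8 CPM and *Ppox* between 5.41 and 32.3 CPM.

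The iron genes had unlike ratios. *Slc25a37* had a larger ratio than *Tfrc* within lane plate 1 and E8.5 plates 1 and 2. Within plates 5 and 6, with 9 and 3 globin-rich cells, its ratio was the smaller. In the pools, *Slc25a37* had the next largest ratio after *Alas2* at both stages, with 21.7 CPM in globin-poor and 842.9 CPM in globin-rich cells at E8.5 (5.21) and 27.7 and 861.99 CPM at E7.5 (4.91). *Tfrc* had the smallest ratio at E8.5, with 121.3 and 555.2 CPM (2.18), and 215.3 and 943.8 CPM at E7.5 (2.13). The E7.5 globin-rich value includes 2 cells of lane plate 4, the higher of them at 5073 CPM. On lane plate 1 alone globin-rich cells had 803.5 CPM of *Tfrc*. The level of *Tfrc* without globin was high and uneven, from 88.6 to 350.4 CPM on E7.5 plates and from 51.3 to 180.9 CPM on E8.5 plates. Among the other E8.5 classes of cells it was highest in neural ectoderm-like cells, 225.2 CPM, and lowest in immune-like cells, 56.4 CPM. *Slc25a37* shares 6.33% of its exon bases with *Gm27223* and *Gm31748* on the other strand, while *Tfrc* shares none.

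Levels of different genes were compared per kilobase of exons, in E8.5 cells with at least 100000 CPM of globin. *Alad* and *Alas2* led, at 592.8 and 579.9 CPM per kb, followed by *Urod* at 239.3 and *Slc25a37* at 214.9. *Uros* (127.9), *Cpox* (122.3) and *Tfrc* (118.7) lay close together, above *Ppox* (87.8) and *Fech* (58.2). *Alas2* was 621.9 CPM per kb on plate 1 and 280.3 on plate 2, and *Alad* 583.3 and 656.6, so the order of the leading pair differed between plates. By the length of the longest principal transcript the leading 4 and the last gene kept their places, while *Cpox* (263.1) passed *Uros* (259.6) and *Ppox* (217.8) passed *Tfrc* (150.1). In E7.5 cells of this range *Alad* was first as well, at 560.7 CPM per kb, before *Alas2* at 274.4 and *Slc25a37* at 228.7. There, by the length of the longest principal transcript, *Slc25a37* (329.96) passed *Alas2* (323.7).

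The members did not all rise at the same range of globin. Cells were placed in 5 ranges of summed globin, with limits at 100, 1000, 10000 and 100000 CPM (the plot of the genes over globin ranges). The ranges also differed in plates and kinds of cell, as given below, so they need not be steps of the same lineage. At E8.5, *Alas2* went through 1.76, 2.04, 57.6, 385.3 and 1393 CPM from the lowest to the highest range. Its largest step was from under 1000 to above 1000 CPM of globin. *Urod* went through 70.7, 98.5, 206.8, 347.8 and 619.98 CPM. *Fech* went through 38.2, 120.4, 152.8, 391.5 and 805.1 CPM. *Uros* (22.6, 40.5, 63.9, 137.1 and 457.5 CPM) and *Ppox* (28.1, 39.96, 68.2, 188.6 and 396.6 CPM) likewise climbed at each step.

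**Figure D1:**
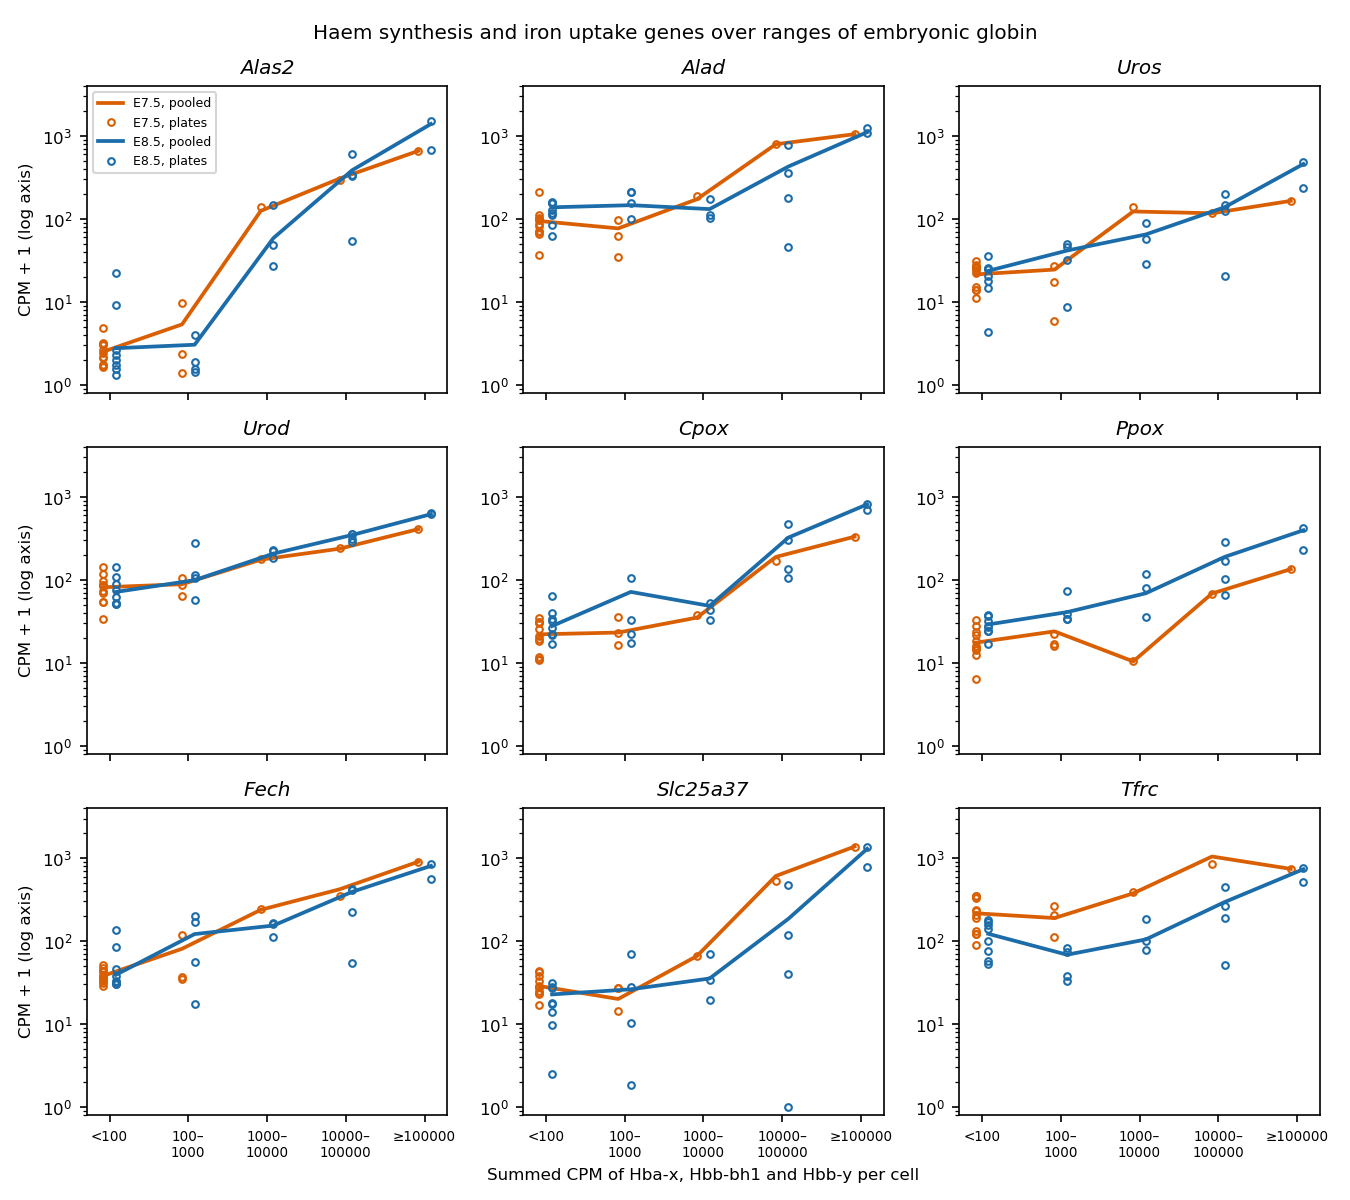
Pooled CPM + 1 (log axis) of the 9 genes in 5 ranges of summed *Hba-x*, *Hbb-bh1* and *Hbb-y* per cell (x axis, CPM); lines are all cells of a stage and open points are plates with at least 3 cells in the range. At E8.5 *Alas2* climbs from 2.04 to 57.6 CPM from the second range to the next, where *Alad* goes from 145.3 to 130.2 CPM.

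The other 4 members changed less, or in no single direction, up to 10000 CPM of globin at E8.5. *Alad* went through 136.9, 145.3, 130.2, 426.7 and 1109 CPM. *Slc25a37* went through 21.7, 25.2, 34.4, 184.6 and 1294 CPM, so most of its climb lay in the 2 highest ranges. *Tfrc* went through 121.3, 67.4, 103.6, 294.3 and 734.1 CPM and *Cpox* through 26.8, 70.8, 47.7, 323.6 and 814.8 CPM. In the middle range the log2 ratio over globin-poor cells was 4.41 for *Alas2* and 1.97 for *Fech*, against 0.64 for *Slc25a37*, −0.07 for *Alad* and −0.23 for *Tfrc*.

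This middle range held 37 E8.5 cells, 18 on plate 5, 12 on plate 6 and 5 on plate 2, and the plates differed. Relative to the globin-poor cells of the same plate, *Alas2* had a log2 ratio of 2.40, 4.34 and 2.74 on plates 5, 6 and 2, and *Slc25a37* 1.29, 0.11 and 2.87. *Alas2* thus led on plates 5 and 6 and not on plate 2, where only 4 cells were globin-poor. Megakaryocyte markers (8 genes) summed to 3669 CPM in the middle range on plate 5 with none at 0, 473.9 on plate 6 with 2 at 0 and 1172 on plate 2 with 1 at 0, against 51.5 CPM in the highest range on plate 1 with 5 at 0. Their part in these differences was not tested. At E7.5 the middle range held 5 cells, with 124.03 CPM of *Alas2*, 375.03 of *Tfrc* and 9.43 of *Ppox*, the last below its globin-poor value.

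The high *Cpox* of the range from 100 to 1000 CPM of globin at E8.5 lay on plate 1. Its 12 cells there had 104.4 CPM of *Cpox* and 169.2 CPM of *Fech*, while the 20 cells of plate 6 had 31.9 and 54.7 CPM and the 4 cells of plate 5 16.5 and 199.6 CPM. The plate 1 cells had 51677 CPM of 8 visceral endoderm markers with none at 0, those of plate 6 87.3 CPM with 1 at 0 and those of plate 5 had all 8 at 0. The plate 5 cells had 3103 CPM of the megakaryocyte markers, and the part of either list was not tested. Visceral endoderm is the outer layer of the yolk sac, next to which the first red cells form. In the 17 visceral endoderm-like cells of plate 1 *Fech* was 178.5 CPM, *Cpox* 103.5, *Slc25a37* 12.4 and *Alas2* 2.80 CPM. In globin-rich cells of that plate *Fech* was 778.8 CPM, *Cpox* 776.6, *Slc25a37* 1242 and *Alas2* 1365 CPM. In the 12 visceral endoderm-like cells each of E7.5 embryos 4 and 5, *Fech* was 66.2 and 34.3 CPM and *Cpox* 21.6 and 43.02 CPM.

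Shares of cells with a read differed between the members. At E8.5, 10.9% of globin-poor cells had a read of *Alas2* (Clopper-Pearson 95% interval 8.12 to 14.1) and 91.6% of globin-rich cells (86.3 to 95.3). With each cell thinned to 100000 reads the shares were 6.79% and 89.8%. *Alad* was read in 92.99% and 99.4% of these cells and *Tfrc* in 87.6% and 99.4%, so that most cells of either kind held them. At E7.5 *Alas2* was read in 13.3% of globin-poor and 98.2% of globin-rich cells, and thinned in 7.70% and 96.4%.

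In the highest globin range, *Alas2* ran from 55.95 to 4736 CPM with a median of 1432 over 64 cells of plate 1, from 0 to 1458 with a median of 586.2 over 17 cells of plate 2, and from 21.1 to 1136 with a median of 731.7 over 21 cells of lane plate 1. *Slc25a37* had medians of 1327, 593.6 and 1484 CPM in the same order. None of the 74 globin-rich cells of plate 1 lacked a read of any member. On plate 2, 12 of 80 globin-rich cells had no read of *Alas2*. These 12 had 155331 to 1176971 reads and 11666 to 189907 CPM of globin, and 12 of them had reads of *Urod* and 11 of *Fech*. At the lowest of these depths a count of 0 allows up to 19.3 CPM. On that plate 6 globin-rich cells had no read of *Uros*, 5 none of *Ppox* and 5 none of *Slc25a37*, and on lane plate 1 the cells at 0 numbered 1, 3 and 2, with 1 for *Alas2*.

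**Figure D2:**
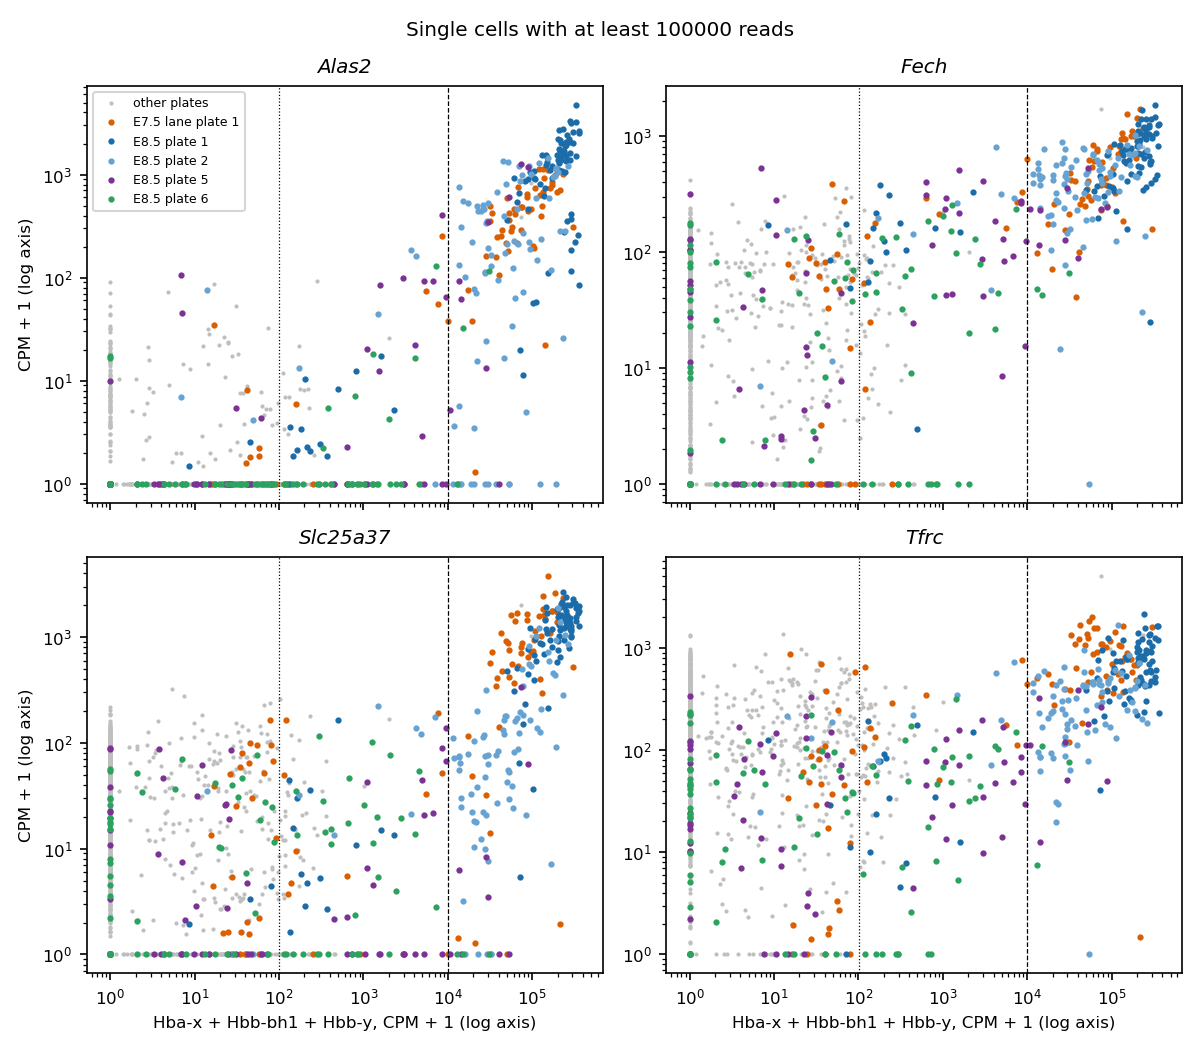
Single cells with at least 100000 reads, by summed *Hba-x*, *Hbb-bh1* and *Hbb-y* (x axis, CPM + 1, log axis) and CPM + 1 of *Alas2*, *Fech*, *Slc25a37* and *Tfrc* (y axis, log axis); colours are 5 plates with blood cells, grey the others, and vertical lines stand at 100 and 10000 CPM of globin. On the lower edge of the *Alas2* panel, right of the dashed line, lie the globin-rich cells with no *Alas2* read. They are 12 cells of E8.5 plate 2 and 1 each of lane plate 1, E8.5 plate 5 and E8.5 plate 6.

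The few globin-rich cells of plates 5 and 6 differed from those of plates 1 and 2. The 9 cells of plate 5 had a median of 2.48 CPM of *Slc25a37*, with 4 cells at 0, and a median of 92.3 CPM of *Alas2*. Pooled, *Alad* was 177.4 CPM in them and 110.6 in the globin-poor cells of plate 5, a log2 ratio of 0.68 and the only member under 2-fold on that plate. All 9 cells fell in the megakaryocyte-like class, with 2093 CPM of the 8 markers and none at 0, and the part of these markers was not tested. The 3 cells of plate 6 had no read of *Slc25a37*, 44.5 CPM of *Alad* against 159.6 in globin-poor cells of the plate, and 53.6 against 0.328 CPM of *Alas2*. Within plate 6, 3 members (*Alas2*, *Cpox* and *Urod*) were at least 2-fold higher. The share over all genes within single plates is not given here. Within plate 2, *Tfrc* was 315.9 CPM in globin-rich and 169.3 CPM in its 4 globin-poor cells, under 2-fold (0.90), and the other 8 members were past it. With only the globin-rich cells of plates 1 and 2, set against all globin-poor cells, a choice made after seeing the data, all 9 members were again at least 2-fold higher than in globin-poor cells.

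Across globin-rich cells of a plate the members varied together, though no value for pairs of other genes is given beside theirs. On log2 values with globins removed from the totals, Spearman coefficients over the 36 pairs of members had medians of 0.50, 0.51 and 0.42 on lane plate 1 (53 cells), plate 1 (74 cells) and plate 2 (80 cells). In this order of plates, *Alas2* and *Fech* had 0.65, 0.77 and 0.47, and *Alad* and *Slc25a37* had 0.77, 0.49 and 0.67. By this coefficient *Tfrc* was more weakly related to the 7 enzymes on the first 2 plates, where its values ran from −0.01 to 0.37 and from 0.00 to 0.32. Its Pearson coefficients there ran from −0.03 (*Fech*) to 0.71 (*Alad*) on lane plate 1. On plate 1 they ran from 0.10 (*Ppox*) to 0.39 (*Uros*), so on lane plate 1 the weakness depends on the coefficient. On the 3 plates the Spearman values of *Tfrc* were 0.12, 0.04 and 0.38 for *Alas2* and −0.01, 0.00 and 0.32 for *Urod*. Against globin itself *Slc25a37* had 0.69, 0.76 and 0.66, *Alas2* 0.76, 0.48 and 0.37 and *Tfrc* 0.16, 0.46 and 0.45. These are descriptions over cells that share a plate, a library preparation and an unstated number of animals, and globin was related to depth at −0.22, −0.28 and −0.15. The members were related to depth at −0.45 (*Alad*) to −0.04 (*Tfrc*) on lane plate 1. On plate 1 this ran from −0.23 (*Tfrc*) to 0.23 (*Cpox*), and on plate 2 from −0.20 (*Tfrc*) to 0.13 (*Urod*). The part of depth in the coefficients was not tested.

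The stages were compared within globin-rich cells, where stage and plate cannot be told apart. Of the 9 members, 4 were at least 2-fold higher at E8.5 and 0 lower, beside 8.65% of 8160 genes higher and 10.3% lower. *Ppox* had the largest log2 ratio of the members, 1.79, followed by *Cpox* at 1.38, *Uros* at 1.31 and *Alas2* at 1.22. *Urod* had 0.79, *Fech* 0.13, *Slc25a37* −0.03, *Alad* −0.08 and *Tfrc* −0.76. The E7.5 pool of *Tfrc* includes the lane plate 4 cell at 5073 CPM. The members' median was 0.79, beside 0.18 over all genes. The 4 higher members rested on plate 1. Without it none was 2-fold higher, with *Ppox* at 0.96, *Cpox* at 0.66, *Uros* at 0.18 and *Alas2* at −0.02, and *Slc25a37* (−1.79) and *Tfrc* (−1.54) were at least 2-fold lower. With the mean of single-cell CPM only *Ppox* was past 2-fold, and with globins removed from the totals the ratios of *Slc25a37* and *Alad* were 0.05 and 0.01.

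Because the stages differed in how much globin their cells held, plates were set side by side within a range (the plot by plate). With at least 100000 CPM of globin, *Ppox* was 134.1, 423.4 and 226.4 CPM on lane plate 1, E8.5 plate 1 and E8.5 plate 2. *Cpox* was 331.5, 827.8 and 699.4 CPM in the same order, *Uros* 163.8, 489.1 and 235.3 CPM and *Urod* 409.2, 616.9 and 634.6 CPM. *Alas2* was 659.4, 1494 and 673.6 CPM. Both E8.5 plates lay above the E7.5 plate for these 5 genes in this range and in that of 10000 to 100000 CPM. The margin of plate 2 was small for *Alas2* here and for *Uros*, at 117.3, 197.4 and 122.6 CPM, in the lower range. By the median cell, given above for at least 100000 CPM of globin, *Alas2* was lower on plate 2 than on lane plate 1. *Fech* was 350.1, 417.5 and 409.9 CPM in the lower range, above on both E8.5 plates, and 904.5, 839.9 and 559.4 CPM in the higher range, below on both. *Slc25a37*, at 1377, 1372 and 776.01 CPM in the higher range, was below on both, plate 1 by little.

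**Figure D3:**
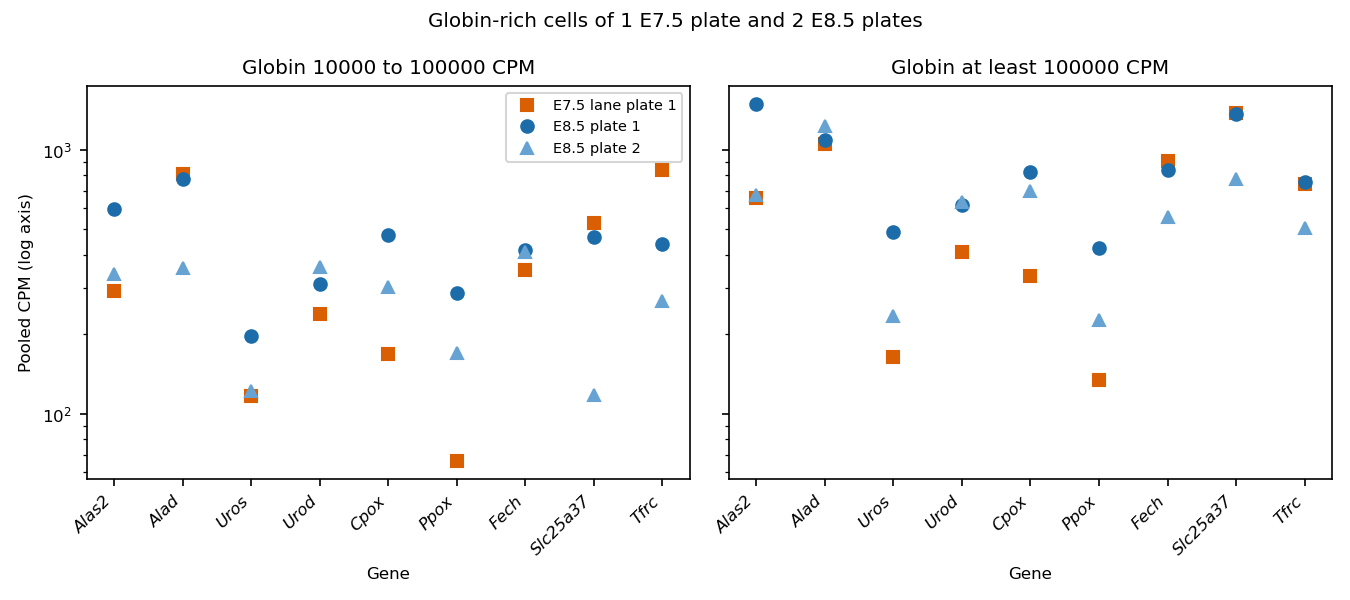
Pooled CPM (log axis) of the 9 genes in globin-rich cells of E7.5 lane plate 1 (squares) and E8.5 plates 1 (circles) and 2 (triangles), in 2 ranges of globin (panels). *Cpox*, *Ppox*, *Uros*, *Urod* and *Alas2* are higher on both E8.5 plates than on the E7.5 plate in both panels, *Fech* in the left panel alone, and *Tfrc* in the left panel is highest on the E7.5 plate, at 836.8 CPM.

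*Tfrc* depended on the range. With 10000 to 100000 CPM of globin it was 836.8, 441.6 and 267.3 CPM on the same plates, highest at E7.5, and with more globin 740.4, 755.5 and 507.4 CPM, with the E7.5 plate between the others. *Slc25a37* was 528.1, 467.9 and 117.5 CPM in the lower range, so that the E8.5 plates differed more from each other than plate 1 did from the E7.5 plate. *Alad* was 807.2, 774.1 and 355.98 CPM there and 1049.1, 1091 and 1228 CPM above.

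Classes of cells were then made by clustering without the members and the other haem and iron genes listed. All 9 members were highest in the erythroid-like class at E8.5 (the map of classes), which held 85.03% of the globin-rich cells. The clusters rest on the same cells, so this is a description. *Alas2* was 1061 CPM there, against 81.4 CPM in 39 megakaryocyte-like cells, all on plate 5, whose median globin was 3006 CPM. These pooled values were uneven over cells, with a median of 649.5 CPM per erythroid-like and 1.88 CPM per megakaryocyte-like cell, and 9 of the 39 megakaryocyte-like cells, the globin-rich cells of plate 5 above, were at 328.5 CPM. In the megakaryocyte-like cells *Urod* was 233.3 CPM, *Fech* 157.6 and *Uros* 86.1, while *Alad* was 126.5 and *Slc25a37* 23.4 CPM. The 37 immune-like cells of plate 5 had 73.1 CPM of *Urod*, 26.4 of *Fech*, 16.5 of *Uros*, 108.4 of *Alad* and 15.7 of *Slc25a37*. For *Ppox* the megakaryocyte-like and immune-like cells of plate 5 had 80.9 and 24.5 CPM, for *Cpox* 42.7 and 22.2, and for *Tfrc* 85.1 and 55.6 CPM. All 9 members were lower in the immune-like cells, *Alad* by the smallest ratio.

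**Figure D4:**
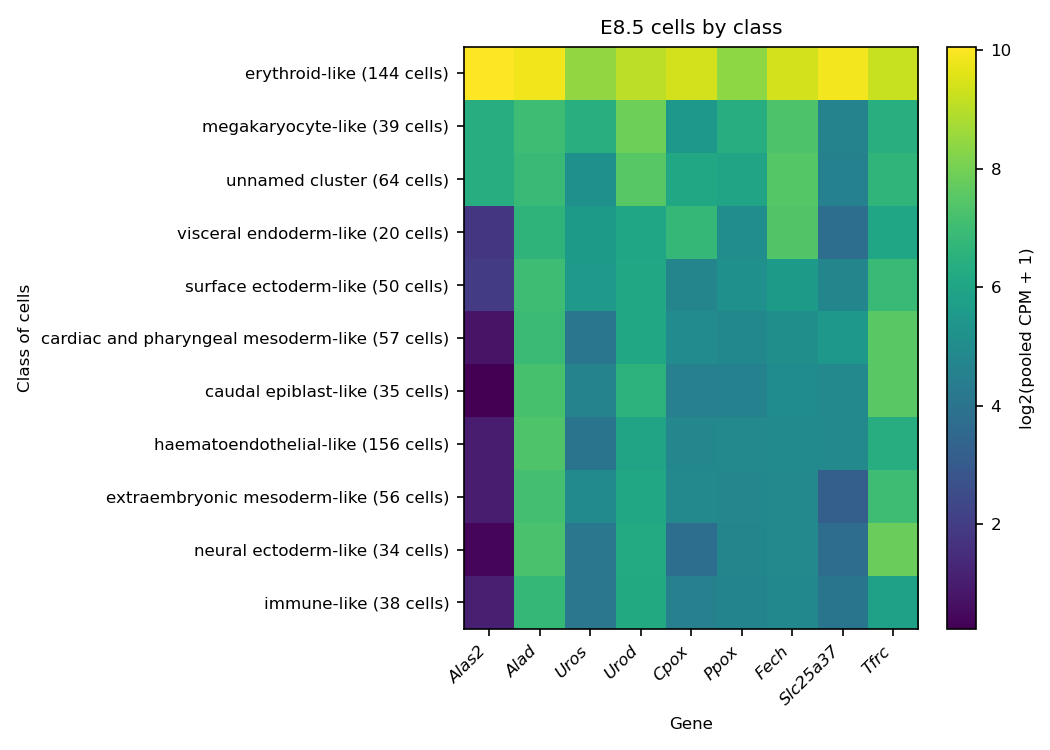
Pooled level, log2(CPM + 1) by colour, of the 9 genes (columns) in classes of E8.5 cells (rows, with the number of cells), ordered by their mean. Erythroid-like cells are highest for each gene, and megakaryocyte-like cells and the unnamed cluster have pooled *Alas2* of 81.4 and 81.5 CPM, though the median cell has 1.88 and 0 CPM.

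A cluster of 64 cells, 42 on plate 6, stayed unnamed, and its leading genes were *Ackr1*, *Gucy1a1* and *Kcnj5*. Of all lists it held most of the blood progenitor list, 6 of 9 markers. Of its cells 16 were globin-rich. Pooled, it had 81.5 CPM of *Alas2*, 178.95 of *Urod* and 174.8 of *Fech*, with 22.6 of *Slc25a37* and 99.98 of *Tfrc*. *Alas2* was read in 25 of its 64 cells and in 2 of 38 immune-like cells. At E7.5 the 65 erythroid-like cells, 61 of them on lane plate 1, had 356.9 CPM of *Alas2* and 719.2 CPM of *Slc25a37*.

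The other genes of haem and iron were read from a list of 38. At E8.5, 35 had at least 10 CPM in a pool, of which 14 were at least 2-fold higher in globin-rich cells and 4 lower, beside 29.4% of all genes lower, with a median log2 ratio of 0.54 over the list. At E7.5 34 passed, 13 were higher and 3 lower, beside 29.9% of all genes lower, and the median was 0.61. *Blvrb*, a biliverdin reductase, had the highest log2 ratio of the list at E8.5, 5.88, followed by *Steap3*, which reduces endosomal iron, at 4.40. *Abcb10*, a mitochondrial transporter, had 4.23, *Hebp1*, which encodes a haem-binding protein, 3.35, and *Tfr2*, the other transferrin receptor, 3.31. At E7.5 these 5 had 5.63, 3.88, 4.15, 3.57 and 2.31, the last with under 10 CPM in both pools.

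**Figure D5:**
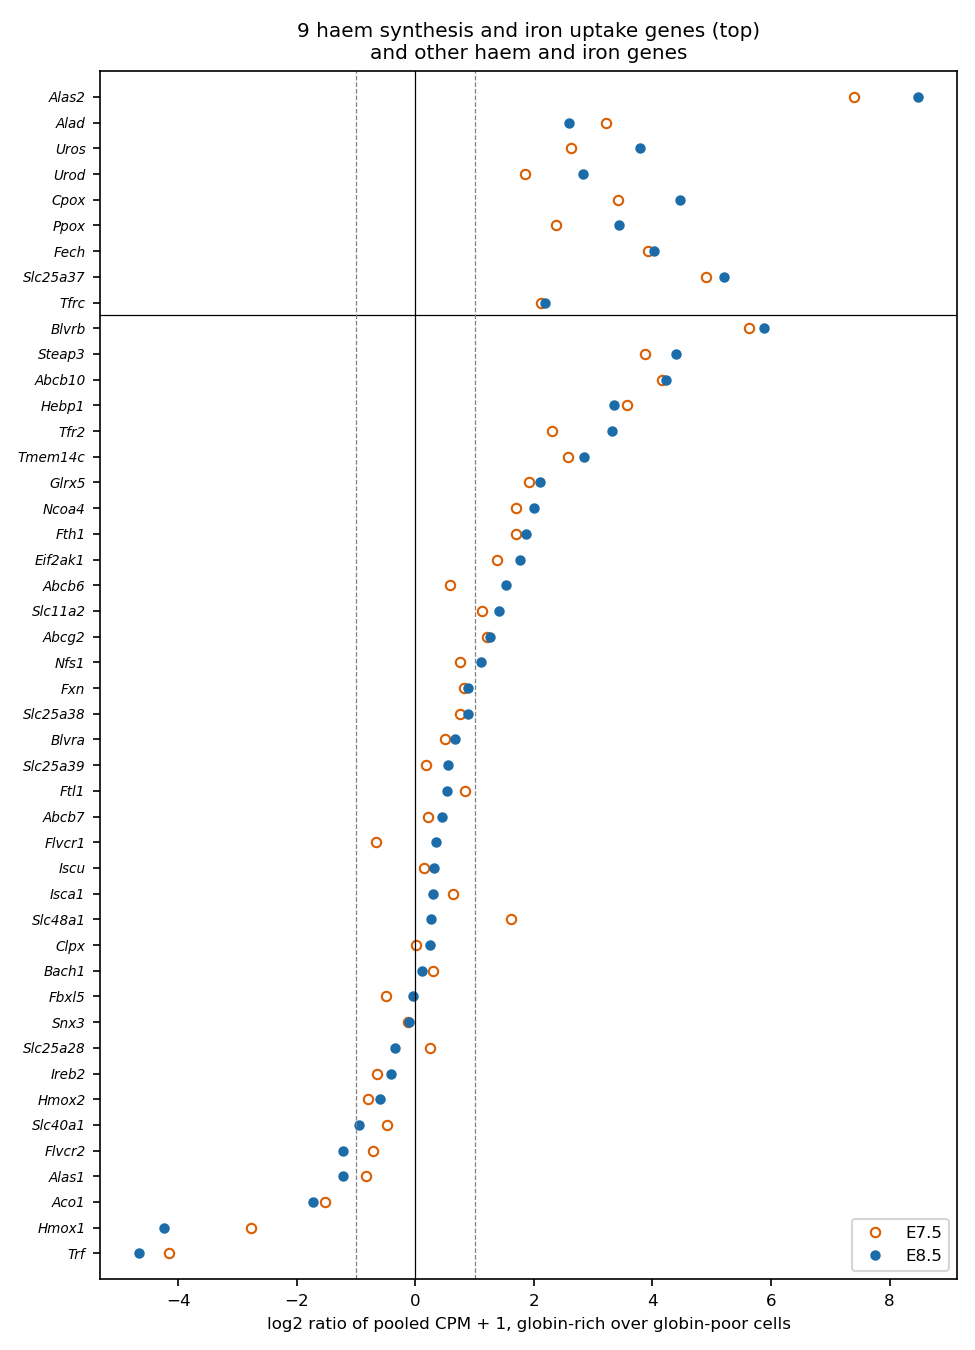
log2 ratio of pooled CPM + 1 in globin-rich over globin-poor cells (x axis) for the 9 members (above the horizontal line) and other haem and iron genes, at E7.5 (open) and E8.5 (filled); dashed lines mark 2-fold. All 9 members lie right of the dashed lines at both stages, from 2.18 (*Tfrc*) to 8.48 (*Alas2*) at E8.5, and *Trf*, *Hmox1*, *Aco1* and *Alas1* lie left of them at E8.5 with at least 10 CPM in a pool.

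*Alas1* went the opposite way to *Alas2*, with 33.2 CPM in globin-poor and 13.6 CPM in globin-rich cells at E8.5 (−1.23) and 22.9 and 12.4 CPM at E7.5 (−0.84, under 2-fold). *Hmox1*, which breaks haem down, was at 58.3 and 2.15 CPM at E8.5 (−4.23). *Trf*, the iron carrier that TFRC binds, was at 56.1 and 1.26 CPM (−4.66). At E7.5 *Trf* had 0 reads in globin-rich cells and 16.7 CPM in globin-poor cells, at least 363.9-fold lower against 3 counts over the pool. Of the genes for iron-regulatory proteins, *Aco1* had −1.72 at E8.5 and *Ireb2* −0.40, under 2-fold.

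The genes most like a member in their pattern were sought among 9354 genes over 32 pools of plate and globin range. *Slc25a37* was nearest to *Ank1*, which encodes a protein of the red cell membrane skeleton (Pearson coefficient 0.94). *Cpox* was nearest to *Trim10* (0.93), *Ppox* to *Smox* (0.91) and *Alad* to *Kel* (0.91). *Tfrc* had the lowest top coefficient of the 9 members, 0.82 with *Picalm*, followed by *Cinp* and *Nt5c2*. The pools share plates, depth and the globin ranges, so these are descriptions.

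In the 4 named E7.5 embryos, *Alas2* was 2.16, 1.11, 0.719 and 2.14 CPM in embryos 1, 2, 4 and 5 (mean 1.53 ± 0.730, SD, n = 4). *Tfrc* was 207.1, 188.9, 343.6 and 330.1 CPM (267.4 ± 80.7) and *Uros* 13.02, 12.9, 29.8 and 26.5 CPM (20.6 ± 8.87), and for both embryos 4 and 5 lay above embryos 1 and 2. Of 98 extraembryonic ectoderm-like cells, with 452.2 CPM of *Tfrc* and 30.2 of *Uros*, 50 were in embryo 4 and 37 in embryo 5, and their part in this difference was not tested. The mean over the 4 embryos was 80.6 ± 15.3 CPM for *Alad*, 85.4 ± 9.60 for *Urod*, 28.5 ± 2.83 for *Cpox*, 16.6 ± 3.19 for *Ppox*, 35.1 ± 5.65 for *Fech* and 34.6 ± 6.62 for *Slc25a37* (SD, n = 4).

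By GENCODE M21 on GRCm38, *Alas2* lies at chrX:150547375-150570638, *Slc25a37* at chr14:69241848-69285112 and *Tfrc* at chr16:32608920-32632794. *Cpox* lies at chr16:58670292-58717636, *Uros* at chr7:133686243-133710072, *Ppox* at chr1:171275990-171281186, *Fech* on chromosome 18, *Alad* at chr4:62509169-62519918 and *Urod* at chr4:116989965-116994413. Counts cover whole genes and do not separate starts or transcripts.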

How the data were processed

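RNA was measured by Smart-seq2, without molecular identifiers, in single cells on 19 plates. The authors deposited raw counts of reads per gene and cell, made with HISAT2 2.1.0 on GRCm38 and featureCounts; strand and multi-mapping settings are not given in the sources used here. Columns without a sample numbered 0. Of 55487 identifiers, 55141 had a symbol and 55227 a GENCODE M21 gene model.

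Cells with at least 100000 reads were kept, 956 at E7.5 (55 globin-rich, 844 globin-poor) and 693 at E8.5 (167 and 442). Reads of the cells of a range were summed and divided by all their reads (CPM). Ratios are on the log2(CPM + 1) scale, on which low genes appear to change less than they do. A gene with at least 10 CPM in a pool and a 2-fold ratio was called. No animal is named for plates with blood cells, so no test was made, and 95% intervals are exact Poisson or Clopper-Pearson ones (scipy 1.17.1).

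Classes came from Leiden clusters (scanpy 1.11.5) without the 9 members and 38 listed genes, named from marker lists. A marker counted where at least 25% of the cells had a read and its mean was at least 2 times that of other cells, and a name needed 3 counting markers, 2 of them among the 50 leading genes, and no other list with more of the 10 leading genes. Doublets were not called; as an alternative, the deepest 2% of cells of each plate were left out.

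Named genes were the members, the globins, *Alas1*, up to 6 highest and 6 lowest listed genes past 2-fold at E8.5, and the genes most like a member, of which some are not reported here; *Ireb2*, the genes sharing exons and the leading genes of a cluster were named after their values were seen. The members, lists and settings were chosen with earlier results of these data known. Alternatives covered library size with TMM (edgeR 4.0.16) or size factors (DESeq2 1.42.0), limits on reads and globin, plates left out and clustering.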

Additional observations from a re-analysis of the deposited data

Results flagged for a closer look

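Over the 4 named E7.5 embryos, 1 of the 9 members had an embryo far from the others. *Cpox* was 24.3 CPM in embryo 4 and 29.95, 30.2 and 29.6 CPM in embryos 1, 2 and 5, so that the gap to the nearest embryo was 0.897 of the whole range. Chance takes about 1 of 20 groups past the limit used, and 9 were examined.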

How the results depend on the processing

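The number of members at least 2-fold higher in globin-rich cells was 9 at E8.5 and 9 at E7.5. It was 8 at E7.5 at a 4-fold threshold. Within single E8.5 plates it was 9 on plate 1, 8 on plate 2 (without *Tfrc*), 8 on plate 5 (without *Alad*) and 3 on plate 6, where *Alad* (log2 ratio −1.82), *Tfrc* (−0.18) and *Slc25a37* (−4.16, a value set by the added 1 CPM since its 3 globin-rich cells had 0 reads) turned lower. Plates 1, 2 and 6 had 3 or 4 cells of one kind and were added after seeing the data. Under the other alternatives run it was 9 at both stages. With plates left out in turn it ran from 9 to 9. Values without lane plate 1, which held 53 of 55 globin-rich E7.5 cells, could not be had. In globin-rich cells 4 members differed at least 2-fold between the stages, all higher at E8.5. The number became 1 with the mean of single-cell CPM (*Ppox*), 2 with the median (*Ppox* higher, *Slc25a37* lower), 6 at a 1.5-fold and 0 at a 4-fold threshold. With plates left out it ran from 2 to 4, and the 2 without E8.5 plate 1, *Slc25a37* and *Tfrc*, were lower at E8.5. The cause was not tested. Shares over all genes are given above only for the pooled 2-fold comparisons. Counts within plates, at other thresholds or with plates left out have no such share beside them. The log2 stage ratio of *Alas2*, 1.22 as reported, ran from −0.023 without E8.5 plate 1 to 1.63 without E8.5 plate 2. Of the other ratios, 14 of the alternative values at E7.5, 28 at E8.5 and 1 between the stages moved by more than the spread between plates, without a change of sign. That spread was an SD of log2 levels over plates. At E7.5 it came from globin-poor pools alone. Between the stages it came from globin-rich pools of E8.5 plates 1, 2 and 5. There it was wide, 1.11 for *Alas2* and 2.49 for *Slc25a37*, so the count of 1 does not show that the stage ratios were stable. All 9 members were highest in erythroid-like cells under each clustering tried. The single E7.5 plate rich in blood cells and the unnamed animals limit the comparison of stages.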
